A study of Drosophila melanogaster with 8 samples.

Results

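The metallothionein and copper uptake genes of Drosophila melanogaster were examined in fly heads: the 5 metallothioneins MtnA, MtnB, MtnC, MtnD and MtnE, their regulator MTF-1, the copper importers Ctr1A and Ctr1B, and the copper-transporting ATPase ATP7. They were chosen by gene name, and all 9 were found among the 13982 genes of the deposited count table. The study modelled deficiency of mitochondrial complex I by knocking down ND-75, a subunit of that complex, in neurons. RNA was measured in 4 Control and 4 ND-75 knockdown libraries, each made from 20 heads (10 male and 10 female) of flies 2 days old. Control flies had the genotype nSybGal4/w[1118], and knockdown flies nSybGal4/ND-75 RNAi, with the short hairpin line HMS00853. Both groups therefore carried the nSyb-Gal4 driver, and only the knockdown group carried the hairpin. For the head expression data the study's legends also give a temperature-sensitive Gal80 repressor with this driver, in knockdown and control flies. The sample labels do not name it.

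Several features limit these groups as a model. The nSyb promoter drives Gal4 in neurons, whereas a head library also holds RNA of glia, fat body, muscle and blood cells. The hairpin line was described as leaky without a driver, and the controls do not carry that line. Lower RNA per cell and fewer cells of a type cannot be told apart in such bulk libraries. Whether the pools of heads were raised from different crosses is not in the labels, and the tests measure only how far the pools of a group differ.

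Metallothioneins are small cysteine-rich proteins that bind copper, zinc and cadmium and so buffer these metals in the cytosol. Their genes are switched on by MTF-1, a zinc finger transcription factor that binds metal response elements, and in flies MTF-1 also activates Ctr1B when copper is scarce. Copper enters cells through the Ctr1 transporters of the plasma membrane, is handed on by chaperones to enzymes such as cytochrome c oxidase and superoxide dismutase, and leaves through ATP7, which also loads copper into the secretory pathway.

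Total counts ranged from 21758154 to 24680283 in Control (median 23541684) and from 17448199 to 24071517 in ND-75 knockdown (median 19669584). Levels are given as CPM, counts scaled to a common library size, after TMM scaling, which assumes that most genes are equal between libraries. The TMM factors were 0.651 to 1.02 in Control, lowest in replicate 2, and 1.12 to 1.15 in ND-75 knockdown. The targeted gene ND-75 lay between 561.7 and 683.9 CPM in Control and between 281.9 and 315.6 CPM in knockdown, a log2 fold change of -1.03 ± 0.11 (SE; adjusted p = 0.000148, edgeR). Control replicate 2 stood apart: the mitochondrial ribosomal RNA mt:lrRNA took 23.9% of its counts, against 4.58 to 9.0% in the other 7 libraries, and short genes read high in it. Tested genes were divided by length into 10 classes of equal size. In the shortest class (65 to 801 bases) the median level of Control replicate 2 was 0.646 higher on the log2 scale than the mean of the other controls. The same class had a median genotype log2 fold change of -0.37, or -0.18 without that library. All 5 metallothionein genes are in the size range of that class and Ctr1B in that of the next, so fold changes, medians and the order of levels are also given without Control replicate 2 where they moved by over 1.5 times or changed.

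Of the 5 metallothionein genes, 4 lie close to one another on the right arm of chromosome 3 (genome build BDGP6). MtnC occupies 3R:20360308-20360634 on the plus strand, MtnB 3R:20503102-20503746 on the minus strand, MtnE 3R:20534021-20534704 on the minus strand and MtnD 3R:20534962-20535301 on the plus strand. MtnE and MtnD point away from each other with 257 bases between their start sites, and MtnB ends 30.3 kb before MtnE. The span from MtnC to MtnD of 175.0 kb holds 13 annotated genes, these 4 metallothioneins included. MtnA stands alone on the same arm, at 3R:9783407-9784370 on the minus strand, 10.6 Mb from MtnC. Each of the 5 has 2 exons and a summed exon length of 268 (MtnC), 274 (MtnD), 584 (MtnB), 604 (MtnE) or 700 bases (MtnA). No annotated exon of another gene overlaps any of them.

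MtnA, a copper-inducible metallothionein, carried nearly all metallothionein RNA. Its level per kilobase of exon was 1046 ± 575 CPM per kb in Control and 518 ± 65.5 CPM per kb in ND-75 knockdown (mean ± SD, n = 4 each). Scaled to length, MtnA made up 98.9 to 99.7% of the summed CPM of the 5 metallothioneins in every library. Only 56 to 152 of the 9986 tested genes had a higher level per kilobase in a given library. The other 4 together held 0.692 to 1.08% of the sum in Control and 0.343 to 0.527% in knockdown.

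The MtnA level was 480, 1315, 688 and 446 CPM in Control replicates 1 to 4 and 423, 364, 312 and 352 CPM in ND-75 knockdown replicates 1 to 4. Control replicate 2 was far above the other controls, the groups did not overlap, and the gap between the lowest control and the highest knockdown library was small. MtnA was lower in knockdown with a log2 fold change of -1.01 ± 0.30 (SE), and passed the test (adjusted p = 0.0271, edgeR quasi-likelihood test with Benjamini-Hochberg adjustment over 9986 genes). Without Control replicate 2 the value was -0.57 ± 0.16 (adjusted p = 0.0190, edgeR), and the call was lost when Control replicate 3 or knockdown replicate 2, 3 or 4 was left out (adjusted p = 0.0552 to 0.0781, edgeR).

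MtnD and MtnE, the divergent pair of metallothionein genes, were scarce and were also lower in knockdown. MtnD had 21, 39, 29 and 22 reads in the Control libraries and 6, 11, 5 and 8 reads in the knockdown libraries, or 0.860, 2.76, 1.36 and 0.890 CPM against 0.298, 0.550, 0.209 and 0.295 CPM. All 4 controls lay above all 4 knockdown libraries, with Control replicate 2 again the highest. The MtnD log2 fold change was -2.06 ± 0.47 (SE; adjusted p = 0.00791, edgeR), the largest decrease among the 7 members tested.

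MtnE had 19, 21, 33 and 16 reads in Control and 10, 8, 10 and 10 reads in knockdown, or 0.778, 1.48, 1.54 and 0.647 CPM against 0.496, 0.400, 0.417 and 0.369 CPM. Here Control replicates 2 and 3 were the high ones, and the groups did not overlap. Its log2 fold change was -1.37 ± 0.36 (SE; adjusted p = 0.0162, edgeR), and without Control replicate 3 it was -1.11 and no longer called (adjusted p = 0.0591, edgeR). MtnD passed the filter on low counts only through the Control libraries, so a difference was built into its entry to the test. MtnE reached the filter level in every Control library and in knockdown replicates 1 to 3. It too needed at least 1 Control library to enter.

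MtnB, another metal-inducible metallothionein, was near the detection limit and failed the filter. It had 5, 64, 15 and 14 reads in Control and 2, 1, 5 and 3 reads in ND-75 knockdown, or 0.205, 4.52, 0.702 and 0.566 CPM against 0.0993, 0.050, 0.209 and 0.111 CPM. One library, Control replicate 2, held 64 of the 98 Control reads, and the lowest Control library lay just under the highest knockdown library. Per scaled library the summed reads were 9.59 times as many in Control as in knockdown (98 against 11 reads, exact 95% interval 5.13 to 19.8), and 4.00 times without Control replicate 2 (34 against 11 reads, 1.98 to 8.74). These intervals cover counting error only, not the spread between libraries.

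With no filter MtnB was called lower (log2 fold change -3.47, adjusted p = 0.0149, edgeR), as it was by DESeq2 (-3.61, adjusted p = 0.000396). Without Control replicate 2 these values were -1.97 (adjusted p = 0.0369, edgeR) and -2.02 (adjusted p = 0.0431, DESeq2). With the filter MtnB entered the test only when Control replicate 1 or a single knockdown library was left out. It was called in the first case (adjusted p = 0.0105, edgeR) and in none of the 4 others (adjusted p = 0.0506 to 0.0629, edgeR).

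MtnC was read 1 time in Control replicate 2 and 1 time in knockdown replicate 4, and not in the other 6 libraries. A count of 0 allows up to 3 reads, which is 0.122 to 0.172 CPM in these libraries when taken over the total counts, so MtnC was not detectable at this depth in either genotype and no fold change is given.

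**Figure D1:**
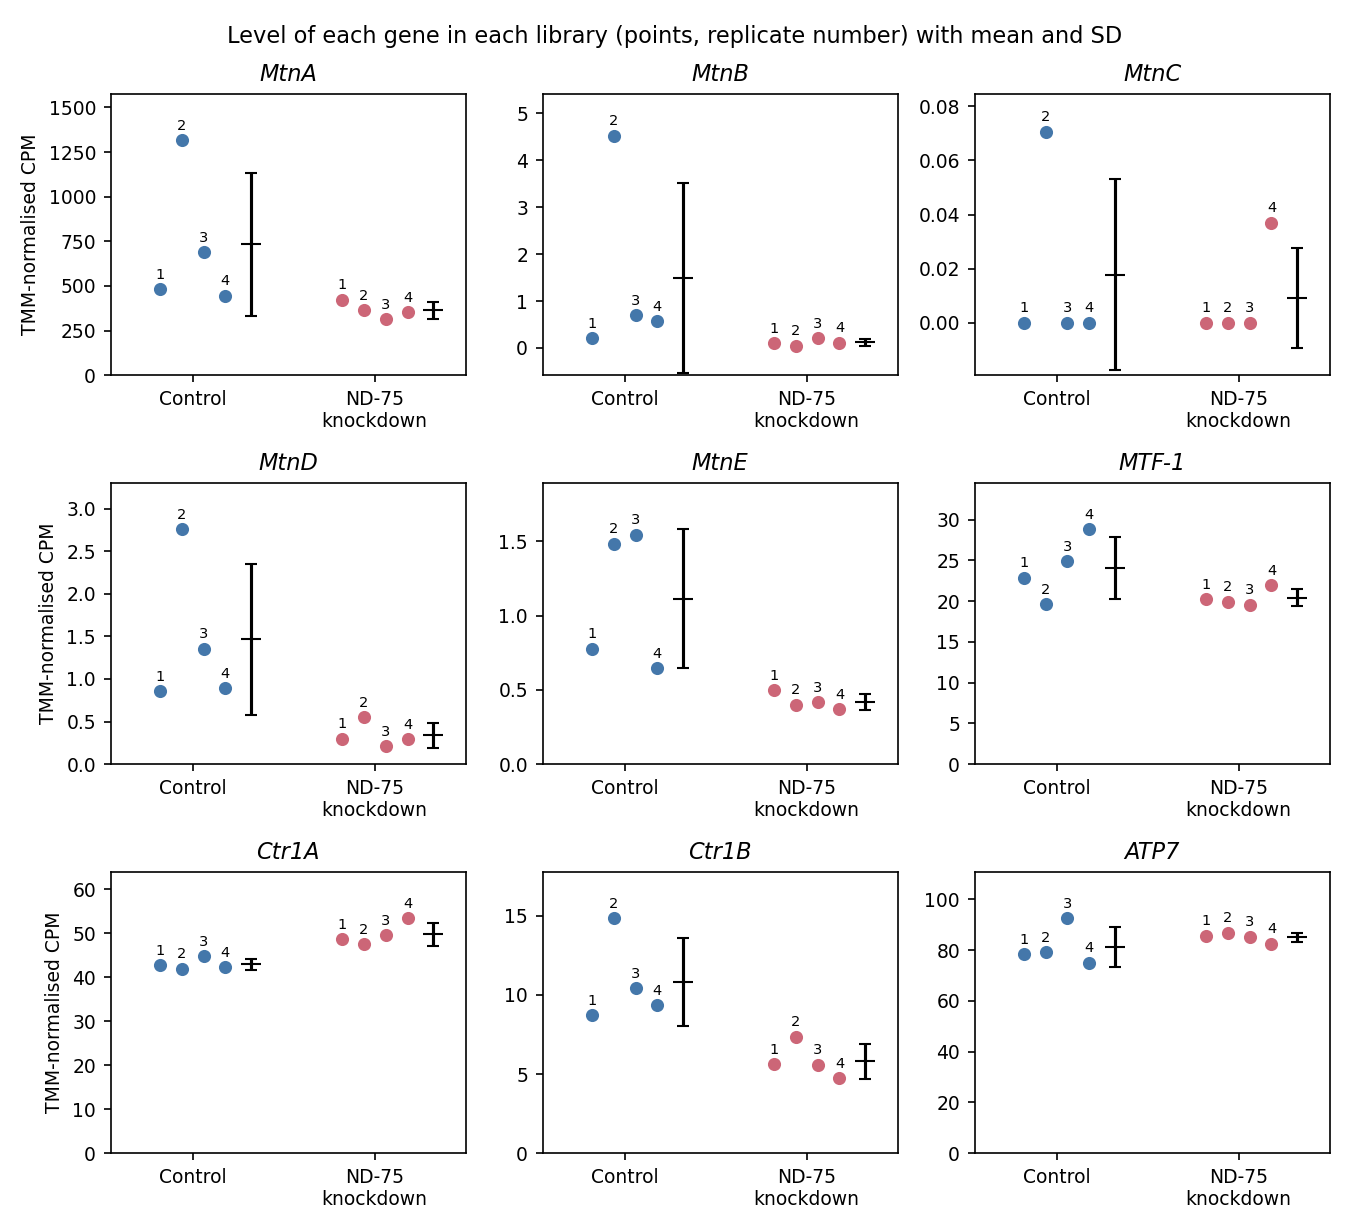
TMM-normalised CPM of each gene in each library (blue points Control, red points ND-75 knockdown, numbers the replicate), with the mean and SD of 4 libraries in black beside them and a scale of its own in each panel. MtnA averages 732 CPM in Control and 363 CPM in knockdown, Control replicate 2 stands highest in the MtnA, MtnB, MtnD and Ctr1B panels, and ATP7 averages 81.2 and 85.0 CPM.

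Within a library, MtnB was compared with MtnA as a log2 ratio of CPM with 0.5 reads added, which does not depend on library scaling. The ratio was -9.67 ± 1.19 in Control and -11.4 ± 0.774 in ND-75 knockdown (mean ± SD, n = 4 each), with Control replicate 2 the highest at -8.17. The groups overlapped, and the difference of -1.78 did not pass an exact two-sided permutation test (p = 0.0571, and 0.0571 adjusted over the 2 ratios tested).

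MTF-1 (3L:9430312-9439490, plus strand, 7 exon blocks) encodes the metal-responsive transcription factor that activates the metallothionein genes. Its level was 22.9, 19.6, 24.9 and 28.8 CPM in Control and 20.3, 19.9, 19.6 and 21.9 CPM in knockdown. The groups overlapped, since Control replicate 2 read as low as the knockdown libraries. The log2 fold change of -0.24 ± 0.12 (SE) did not pass the test (adjusted p = 0.153, edgeR).

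Without Control replicate 2 MTF-1 was called lower (-0.32, adjusted p = 0.0305, edgeR), as it was with the length trend removed (-0.39, adjusted p = 0.0101, edgeR). It was also called lower with limma's voom with quality weights (-0.27, adjusted p = 0.0337), which gives less weight to libraries that deviate. MTF-1 shares 644 exon bases with Bet3 and 251 with CG42526 on the opposite strand, and 467 on its own strand with an antisense RNA not analysed here. The strand setting of the counting is not given in the sources used here, so reads of these stretches cannot be assigned to one gene.

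Of the 2 copper importers, Ctr1B was lower in knockdown and Ctr1A did not pass the test. Ctr1B (3R:8317612-8319205, plus strand, 2 exons), the importer known from the larval gut as a target of MTF-1, had 213, 210, 223 and 231 reads in Control and 113, 147, 134 and 128 in knockdown, or 8.72, 14.8, 10.4 and 9.34 CPM against 5.61, 7.35, 5.59 and 4.73 CPM. All controls lay above all knockdown libraries, with Control replicate 2 the highest and knockdown replicate 2 the highest of its group. Its log2 fold change was -0.89 ± 0.20 (SE; adjusted p = 0.00670, edgeR). It was called lower under each of the 18 alternatives run, with log2 fold changes from -1.02 to -0.67.

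Ctr1B shares 181 exon bases with Poxm on the opposite strand and 185 with lncRNA:CR45215 on its own strand, genes with 14 to 52 and 1 to 10 reads a library. Ctr1A (X:6661647-6668258, plus strand, 8 exon blocks), the broadly expressed importer, had 42.8, 41.96, 44.8 and 42.3 CPM in Control and 48.6, 47.5, 49.5 and 53.4 CPM in knockdown. Every knockdown library lay above every control, and Control replicate 2 was the lowest control by a small margin. The log2 fold change of 0.21 ± 0.08 (SE) did not pass the threshold in the main test (adjusted p = 0.0682, edgeR), but did in 5 of the 18 alternatives, among them DESeq2 (0.23, adjusted p = 0.0358).

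The log2 ratio of Ctr1B to Ctr1A within a library was -2.02 ± 0.354 in Control and -3.11 ± 0.330 in ND-75 knockdown (mean ± SD, n = 4 each). The difference was -1.09, with no overlap between the groups. An exact two-sided permutation test gave p = 0.0286, the smallest that 70 regroupings of 8 libraries allow, and 0.0571 when adjusted over the 2 ratios. Without Control replicate 2 the difference was -0.92 (exact permutation p = 0.0571).

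ATP7 (X:11855022-11864754, plus strand, 4 exon blocks), the fly counterpart of the Menkes and Wilson disease copper pumps, read 78.4, 79.1, 92.4 and 74.9 CPM in Control and 85.6, 86.8, 85.2 and 82.5 CPM in knockdown. The knockdown libraries lay within the Control range. The log2 fold change of 0.07 ± 0.09 (SE) did not pass the test (adjusted p = 0.590, edgeR). Its sign turned with the length trend removed (-0.11) and with weighted voom (-0.01). ATP7 shares 104 exon bases with Nrd1 on the opposite strand, a gene with 219 to 890 reads a library.

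**Figure D2:**
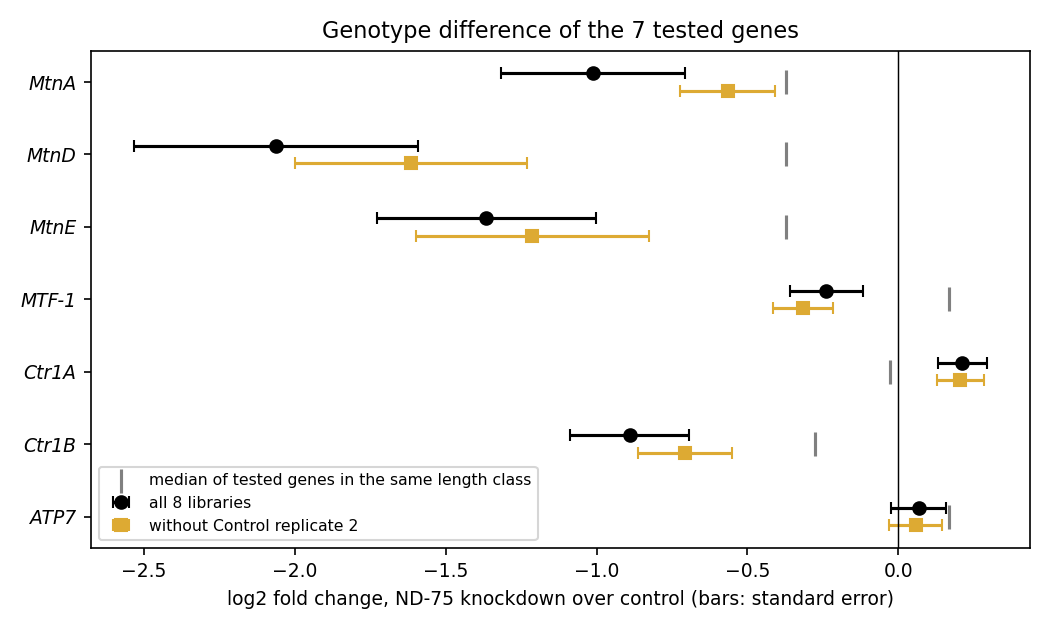
Log2 fold change (ND-75 knockdown over Control) of the 7 tested genes with its standard error, from all 8 libraries (black circles) and without Control replicate 2 (yellow squares), beside the median of all tested genes in the same length class (grey ticks). MtnA moves from -1.01 to -0.57 and MtnD from -2.06 to -1.61, while Ctr1A stays at 0.21. All 4 called genes lie below the grey ticks, but they were picked by their decrease, so this is no test against genes of like length. MtnD entered only through its Control level, and MtnE needed at least 1 Control library.

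Of the 7 members tested, 4 were called lower (MtnA, MtnD, MtnE and Ctr1B), 0 higher and 3 neither (MTF-1, Ctr1A and ATP7). With at least 10 reads required in every library, which leaves out MtnD and MtnE, 2 of 5 were lower (MtnA and Ctr1B) and 1 was higher (Ctr1A). Over all 9986 genes tested, 18.9% were called lower and 14.3% higher. By TMM-scaled CPM, 36.2% had groups of libraries that did not overlap, against 5 of the 7 members. By unadjusted p under 0.05 in the edgeR test 1 member, Ctr1A, was higher and 4 were lower. The share of all genes at that unadjusted threshold is not given here. DESeq2 tested 8 members, MtnB among them, and called 1 higher and 5 lower. Over all 11803 genes it tested, it called 1694 higher and 2017 lower. The median log2 fold change of the 7 was -0.89, beside -0.01 over all tested genes and -0.37 in the shortest length class. Without Control replicate 2 these medians were -0.57, -0.0013 and -0.18. The edgeR counts and the median leave out the 2 untested metallothioneins. They include MtnD, which only its Control level let in, and MtnE, which needed at least 1 Control library to enter. The counts and the median therefore describe the tested genes, and nothing is read from them about all 9.

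The order of the 9 genes by level per kilobase was much the same in both genotypes. In Control it ran MtnA (1046 CPM per kb), Ctr1A (18.4), ATP7 (15.7), Ctr1B (11.4), MtnD (5.35), MTF-1 (5.22), MtnB (2.57), MtnE (1.84) and MtnC (0.0659). Ranges over the 4 libraries overlapped between each neighbouring pair from ATP7 down to MtnE, so only MtnA over Ctr1A, Ctr1A over ATP7 and MtnE over MtnC were separated. MtnA was 56.8 times Ctr1A, the next in order. Without Control replicate 2 MtnB averaged 0.841 CPM per kb, below MtnE at 1.64, and MtnD at 3.78 stood below MTF-1 at 5.54, so the Control order became that of the knockdown libraries. MtnE and MtnB were then the only neighbours whose ranges overlapped.

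In ND-75 knockdown the order was MtnA (518 CPM per kb), Ctr1A (21.3), ATP7 (16.5), Ctr1B (6.11), MTF-1 (4.43), MtnD (1.23), MtnE (0.697), MtnB (0.201) and MtnC (0.0344). Here the only neighbours whose ranges overlapped were MtnD with MtnE and MtnB with MtnC. The coefficient of variation of MtnA was 55.0% over the Control libraries and 12.6% over the knockdown libraries, and that of MtnE 41.9% and 12.9%. Ctr1A had 2.94% and 5.12%.

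The SD of the Control libraries fell when replicate 2 was left out for MtnA (from 403 to 131 CPM), MtnB (from 2.03 to 0.257 CPM) and MtnD (from 0.890 to 0.279 CPM), and not for MtnE (0.466 and 0.484 CPM). Relative to the mean of the other 3 controls, Control replicate 2 read 9.21 times as high for MtnB, 2.66 for MtnD, 2.44 for MtnA and 1.5 for MtnE, but 0.970 for Ctr1A, 0.965 for ATP7 and 0.770 for MTF-1. Ctr1B was at 1.56 times. MtnE and Ctr1B deviated about as much as the median gene of their length (0.58 beside 0.65, and 0.64 beside 0.44, on the log2 scale). MtnA at 1.29 and MtnD at 1.41 were above that median but below the upper bound of the central 95% of the shortest class, 2.29, and MtnB at 3.20 was beyond it.

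**Figure D3:**
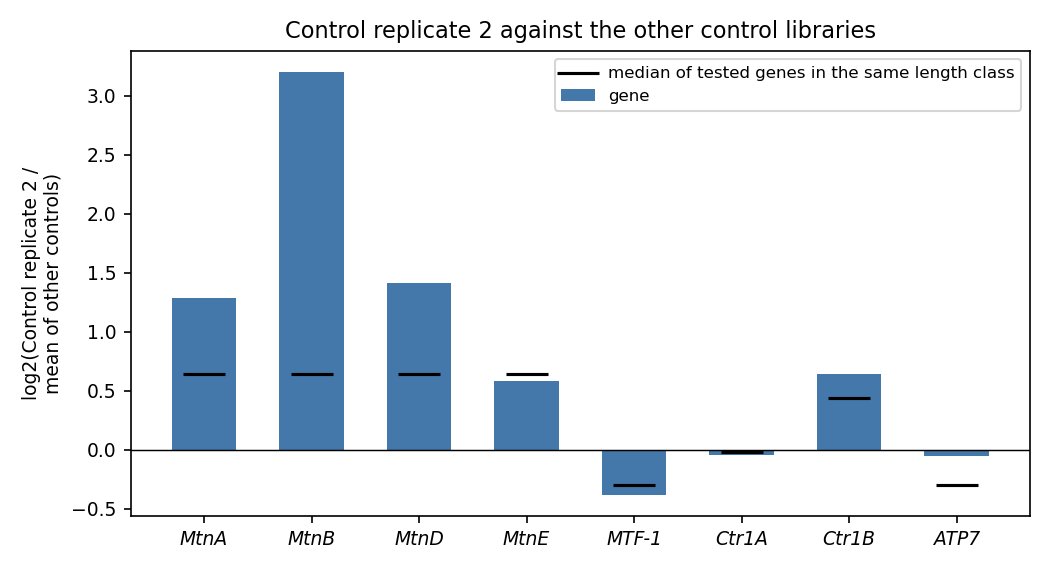
Log2 ratio of the level in Control replicate 2 to the mean of the other 3 Control libraries for 8 genes (bars), with the median of all tested genes in the same length class (black lines). MtnC is left out because the other controls had 0 reads. MtnB at 3.20, MtnD at 1.41 and MtnA at 1.29 rise above the lines, and Ctr1A at -0.04 sits near 0.

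Markers of head cell types, neurons and photoreceptors included, also differed between the groups. The summed CPM of 6 fat body markers was 4829 to 7838 in Control and 2168 to 3164 in ND-75 knockdown, and 3 of the 6 were called lower. All 5 hemocyte (blood cell) markers were called lower, from a summed 126.8 to 170.2 CPM to 54.1 to 75.3 CPM. Of 7 glial markers 3 were lower (summed 2621 to 3327 CPM in Control and 2266 to 2580 CPM in knockdown), and of 6 photoreceptor markers 4 were lower (36780 to 52590 CPM and 26780 to 31890 CPM), among them the rhodopsin gene ninaE with a log2 fold change of -0.79. Of 8 neuronal markers 4 were higher, and none of 5 muscle markers was called in either direction.

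In Control replicate 2, the library in which MtnA was highest, the summed glial (3327 CPM) and muscle (12630 CPM) markers were the highest of the controls, and the summed fat body (4829 CPM) and photoreceptor (36780 CPM) markers the lowest. The summed neuronal markers (3637 CPM) were not the lowest of the controls, which began at 3469 CPM. Single markers differed in this. Among the controls, 5 of 7 glial and 4 of 5 muscle markers were highest there. Of the photoreceptor markers 4 of 6, and of the neuronal markers 5 of 8, were lowest there. Of the fat body markers apolpp, FASN1 and Lsp1beta were lowest there, and fit was highest. The midgut is known for metallothionein expression in flies fed copper. Of 3 midgut markers tested 1 was lower, the maltase gene Mal-A1 (5.15 CPM in Control and 2.72 CPM in knockdown on average, log2 fold change -0.92, adjusted p = 0.00964, edgeR), and Amy-p and lab were not called. The midgut proteases Jon65Aiii and Jon25Biii averaged 0.0335 CPM each in Control and 0 and 0.0885 CPM in knockdown, and the summed CPM of the 5 midgut markers in the table was 12.4 to 14.8 in Control and 8.10 to 17.6 in knockdown. The part of any of these cell types in the members' values was not tested.

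Other genes of copper and zinc handling were counted from 3 lists. Of the copper chaperones and delivery proteins, 4 were tested and none was called: Atox1, which passes copper to ATP7, Ccs, which loads superoxide dismutase, and Scox and CG31648 (the Cox11 counterpart), which serve cytochrome c oxidase. Their median log2 fold change was -0.37. Without Control replicate 2 the log2 fold changes were -0.19 (Atox1), -0.18 (Ccs), -0.29 (Scox) and -0.06 (CG31648), each a smaller decrease than with all libraries. Atox1, the most abundant, had 87.3, 132, 107 and 93.5 CPM in Control and 84.5, 80.3, 86.1 and 84.4 CPM in knockdown, with no overlap but an adjusted p of 0.0693 (edgeR).

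Of 14 copper enzymes tested, 2 were called higher and 2 lower, with a median log2 fold change of -0.06. Without Control replicate 2 the 2 middle log2 fold changes of the 14 were -0.0007 and 0.0296, so the median changed sign. PPO1, a copper-containing prophenoloxidase of the melanisation pathway, had 14.7, 16.5, 11.7 and 13.4 CPM in Control and 43.5, 46.5, 51.0 and 41.4 CPM in knockdown. Its log2 fold change of 1.70 ± 0.12 (SE; adjusted p = 1.38e-05, edgeR) was the largest in these lists. Its paralogue PPO2 did not pass the test (0.25, adjusted p = 0.127, edgeR).

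Sod1, the copper-zinc superoxide dismutase, had 438, 931, 613 and 438 CPM in Control and 340, 313, 283 and 318 CPM in knockdown. As for MtnA, Control replicates 2 and 3 were high, and the groups did not overlap. Sod1 was lower by a log2 fold change of -0.95 ± 0.22 (SE; adjusted p = 0.00939, edgeR). The lysyl oxidase Loxl2 was also lower, from 33.8, 32.4, 38.9 and 44.5 CPM to 23.5, 21.5, 19.2 and 21.4 CPM (-0.81 ± 0.12, SE; adjusted p = 0.000843, edgeR), without a raised Control replicate 2.

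Of 14 zinc transporters tested, 1 was called higher and 3 lower, with a median log2 fold change of -0.22. Zip71B, a member of the ZIP family that brings zinc into the cytosol, had 21.8, 31.4, 24.3 and 18.1 CPM in Control and 47.2, 48.9, 43.8 and 36.5 CPM in knockdown, a log2 fold change of 0.89 ± 0.16 (SE; adjusted p = 0.00266, edgeR). Catsup, a ZIP protein of internal membranes, fell from 34.3, 37.7, 41.2 and 37.9 CPM to 23.9, 21.9, 22.7 and 24.7 CPM (-0.70 ± 0.09, SE; adjusted p = 0.000486, edgeR). ZnT33D, a member of the ZnT family that removes zinc from the cytosol, fell from 3.56, 2.97, 2.95 and 3.84 CPM to 1.39, 1.45, 1.46 and 1.18 CPM (-1.29 ± 0.18, SE; adjusted p = 0.000666, edgeR). In each of these 3 genes the groups did not overlap. Catsup shares 80 exon bases with Ttc19, and Zip71B 3 with mRpL39, each on the opposite strand.

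**Figure D4:**
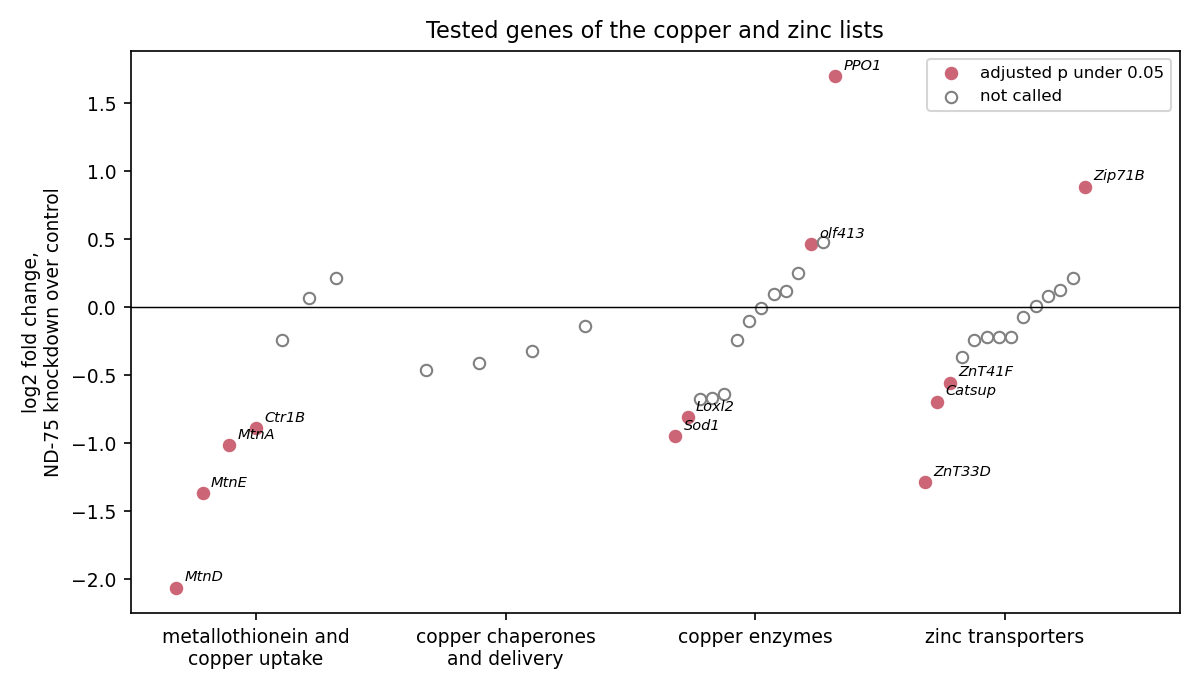
Log2 fold change (ND-75 knockdown over Control) of each tested gene in 4 lists, sorted within a list, with called genes (adjusted p under 0.05 in the edgeR test) filled and named and the others open. All 4 called metallothionein and copper uptake genes lie below 0, none of the 4 chaperones is called, and the copper enzymes and zinc transporters have called genes on both sides. MtnD and MtnE needed Control libraries to enter the test. With at least 10 reads in every library, 2 members are called lower and 1, Ctr1A, higher. Over all tested genes 18.9% are called lower and 14.3% higher.

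The genes most like MtnA across the 8 libraries, by Pearson correlation of log2 CPM, were CG8012 (r = 0.999), Pex11 (0.997), Gbp1 (0.996), Chchd2 (0.995) and kri (0.992). CG8012 read 38.6, 105, 57.9 and 38.1 CPM in Control and 35.4, 31.3, 27.0 and 29.5 CPM in knockdown. The most like Ctr1B were CG43109 (r = 0.988), Psf2 (0.978), a subunit of the GINS replication complex, and CG34109 (0.977). CG43109 (0.111 to 1.41 CPM) and CG34109 (0.0369 to 1.91 CPM) were scarce, so the added 0.5 CPM weighs on their values. Psf2 read 16.1, 28.5, 20.9 and 16.2 CPM in Control and 5.66, 9.50, 5.97 and 5.72 CPM in knockdown. In all 8 of these genes Control replicate 2 was the highest library, and the points share that library and the genotype groups, so the likeness is a description only.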

How the data were processed

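Reads were cleaned with fastp and aligned with HISAT2 by the authors, and the deposited counts per gene were made with featureCounts on the Ensembl 102 annotation. Versions and the strand setting are not given in the sources used here. The 16 deposited per-library columns of size-factor-normalised and length-scaled values were not used, nor were the authors' log2 fold changes and p values.

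The 9 members, the lists and the tests were chosen with earlier results of these data known. Counts were fitted with edgeR 4.0.16 in R 4.3.3: filterByExpr by genotype (minimum count 10, minimum total 15), TMM scaling and the quasi-likelihood test over 9986 genes, with Benjamini-Hochberg adjustment and calls at 0.05. The procedure was tested on simulated data. Within-library ratios took an exact permutation test. Named genes were all members, ND-75, up to 3 called genes of each list by adjusted p, and the genes most correlated with MtnA (5) and Ctr1B (3). Genes such as ZnT41F and olf413 appear in counts or plots only. Positions come from Ensembl 115 (BDGP6), where all 9 members have the deposited coordinates. The listed genes Cox17, Ctr1C, MCO3, alphaTry and betaTry were not analysed here. Alternatives used DESeq2 1.42.0, limma 3.58.1, other scalings and filters, a loess removal of the length trend (span 0.5), testing against a fold of 1.2, and leaving out single libraries.

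Same-numbered replicates were not treated as pairs. Sequences were not analysed here.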

Additional observations from a re-analysis of the deposited data

Results flagged for a closer look

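MtnB in Control had a library far from the others: replicate 2 read 4.52 CPM, beside 0.205 to 0.702 CPM in the other 3, and its gap to the nearest was 0.885 of the group's range. ND-75 in the knockdown group had replicate 3 low, at 281.9 CPM beside up to 315.6 CPM, with a gap of 0.896 of the range. These 2 came from 34 groups of 4 libraries examined, and chance alone marks about 1 in 20. What set these libraries apart was not tested.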

How the results depend on the processing

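No member was called higher in the main analysis, but 1 (Ctr1A) was under each of 5 alternatives: DESeq2, upper quartile scaling, at least 10 reads in every library, the length trend removed, and mitochondrially encoded genes removed before scaling, which was chosen after seeing the data. The 4 members called lower became 2 when 10 reads were required in every library, since MtnD and MtnE were then no longer tested. Leaving out one library gave 2 to 5 lower, with 2 without Control replicate 3, and 2239 to 3599 genes called over all genes beside 3314. Against a fold of 1.2, 1817 genes were called and MtnA was lost (adjusted p = 0.0566, edgeR). The sign of ATP7 turned in 2 alternatives, voom with quality weights (-0.0098) and removal of the length trend (-0.1135).

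Same-numbered libraries did not deviate together (correlations from -0.112 to 0.026). With a replicate block 2707 genes were called and the same 4 members were lower. The Ctr1B to Ctr1A difference of -1.092 had p = 0.125 by exact sign flips over the 4 pairs of that replicate block, the smallest p that 4 pairs allow, so that test could not pass the threshold. Leave-one-out values ran from -1.232 to -0.9188, the last without Control replicate 2. The MtnB to MtnA difference ran from -2.239 to -1.278, and was -0.8222 with 5 reads added. Over the 7 tested members, ND-75 and 6 list genes there were 250 values under the alternatives, of which 234 kept their direction and side of the threshold, 6 lost the call, 8 gained one and 2 reversed. MtnB, tested in 9 settings (2 of them chosen after seeing the data), was called lower in 5. With 4 libraries a group and under 40 reads a library, MtnB, MtnC, MtnD and MtnE are limited by depth, apart from 64 reads of MtnB in Control replicate 2.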
